A study of Mus musculus with 12 samples.

Results

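The comparison concerns 8 of the 12 libraries of the series, 4 from male mice at postnatal day 14 (P14) and 4 from male mice at postnatal day 28 (P28), and follows every gene across the late step of cortical maturation. The libraries were chosen by their age labels alone. The series asks about effects of a histone H2B variant that depend on age and cell type, and these libraries are its nuclear RNA-seq of polyadenylated RNA. All 12 libraries, P0 included, carry the genotype CAG-Sun1/sfGFP +/-; NEX-Cre +/- and the tissue label of forebrain cortical nuclei. NEX-Cre is expressed from the Neurod6 locus, so the Sun1/sfGFP tag of the nuclear envelope is placed on excitatory neurons of the dorsal forebrain. The names of the P14 and P0 libraries contain the letters WT and those of the P28 libraries do not. P28 replicate 4 is named as a merged library. The other 3 P28 libraries share a number in their names that no P14 library has. The titles number the libraries of each age as biological replicates and do not say how many animals each holds.

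Between these ages the mouse cortex passes from the opening of the eyes and the onset of sensory experience to the juvenile state. Excitatory neurons have finished migrating and most axon growth by P14. From then on, synapses are strengthened or removed, potassium and sodium channels sharpen firing, and a dense extracellular matrix settles around cells. Neuronal firing switches on immediate-early genes, transcription factors and signalling regulators made within minutes of a stimulus, which in turn drive a later wave of genes acting at the synapse.

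The 8 libraries held between 21569262 and 33611769 reads each, and 3 reads correspond to between 0.089 and 0.139 CPM. The 4 P0 libraries, which share the fit, were shallower, with 13195973 to 16599217 reads, at which 3 reads are between 0.181 and 0.227 CPM. Values are given below as scaled CPM, where CPM is the usual unit of reads set against the library total. The total was taken over the 25834 genes present in the tables of all 3 ages. Each CPM value was divided by a median-of-ratios factor, which lay between 0.9359 and 1.04 over the 12 libraries. A total of 15734 genes reached 1 scaled CPM in at least 4 of the 12 libraries and were tested. P14 replicate 2 stood apart before any contrast: the first principal component of the 8 libraries carried 53.7% of the variance and placed it at -78.4, while the other P14 libraries lay between -12.25 and 2.51 and the P28 libraries between 18.83 and 28.35. The second component, with 27.7% of the variance, separated the other 3 P14 libraries from all P28 libraries. The counts, list medians and called genes printed here are therefore also given without P14 replicate 2 where leaving it out ended a call or moved the value by over 1.5 times. Each age was deposited and normalised as a table of its own, so age and table cannot be told apart. The excitatory markers behind the label, among them Slc17a7, Camk2a and Neurod2, summed to between 4704 and 7146 scaled CPM. Those of astrocytes summed to between 1640.1 and 3062 and those of oligodendrocytes to between 1238 and 3451, so transcripts of glia were present beside those of the tagged neurons. Neurod6, the gene whose promoter drives the Cre, was at 55.1, 53.3, 73.3 and 68.1 scaled CPM at P14 and at 49.8, 57.8, 54.4 and 53.1 at P28. Its log2 fold change of -0.20 ± 0.10 (SE) did not pass the test (adjusted p = 0.186) but did without P14 replicate 2, at -0.28 (adjusted p = 0.0372). H2bc21, which encodes the H2B variant named in the series title, was at 11.3, 11.5, 9.93 and 8.99 and at 10.1, 11.5, 8.53 and 9.64, with overlapping ages and an adjusted p of 0.798.

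From P14 to P28, 1450 of the 15734 genes rose (9.22%) and 1431 fell (9.09%) at a limma adjusted p below 0.05, and the median log2 fold change over all genes was -0.01. A change of at least 2-fold was rare, with 221 genes that rose (1.40%) and 227 that fell (1.44%). In 2236 genes (14.2%) every P28 library was above every P14 library, and in 2070 (13.2%) every P28 library was below. Without P14 replicate 2 the test called more genes, 1952 that rose (12.4%) and 2107 that fell (13.4%), of which 185 (1.18%) and 276 (1.75%) changed at least 2-fold. In all, 2881 genes (18.3%) were called with every library and 4059 (25.8%) without it. The lists shared 1371 rising genes, 94.6% of those called with all libraries and 70.2% of those called without the library, and 1352 falling genes, 94.5% and 64.2%. Leaving out 1 P28 library lowered the counts, to 919 rising and 1020 falling genes without replicate 1, 931 and 960 without replicate 2, 924 and 901 without replicate 3, and 894 and 913 without replicate 4. On the deposited values without rescaling, the median of all genes was -0.196, and 674 of 15759 genes rose and 3862 fell. Only 14.9% of the called genes rose there, against 50.3% on the scaled values, so changes are read relative to the median of all genes. The list counts given below for the deposited values hold this shift of all genes and are read against it.

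**Figure D1:**
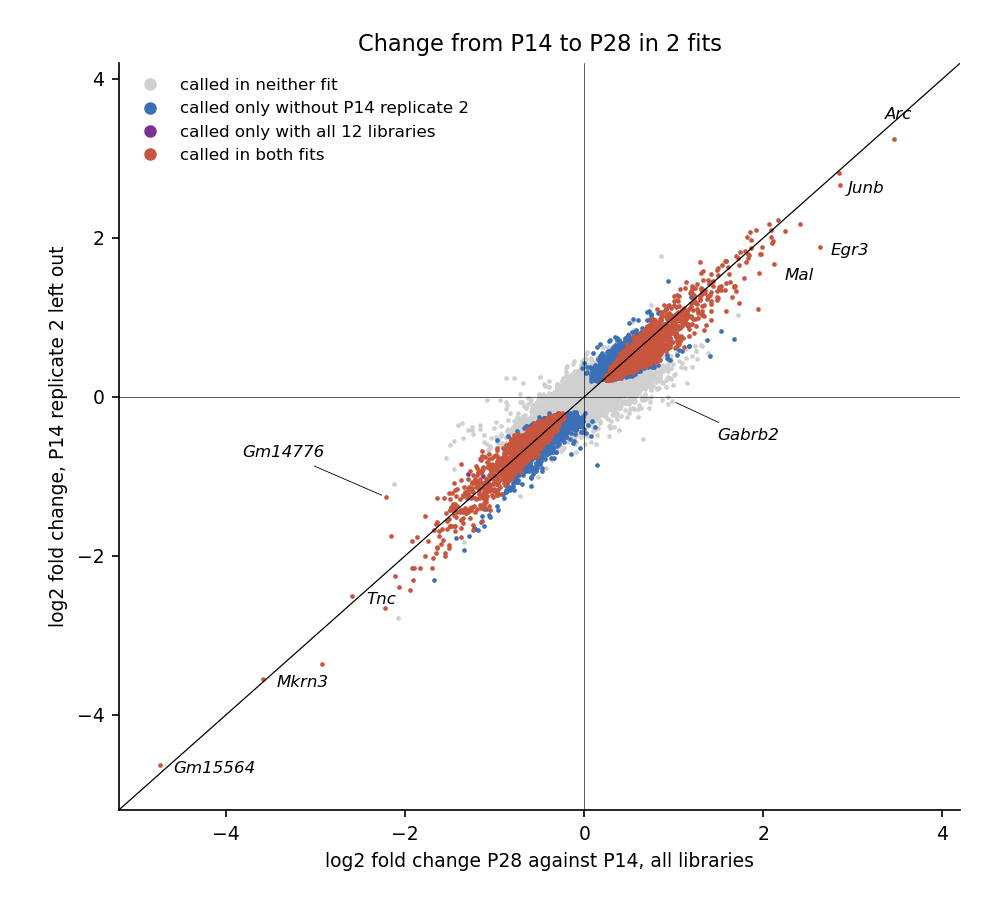
Log2 fold change from P14 to P28 of 15734 genes with all 12 libraries (horizontal axis) and with P14 replicate 2 left out (vertical axis), coloured by the fits in which limma called the gene; the black diagonal marks equal values. Most called genes lie near the diagonal, while Gabrb2 moves from 0.98 to -0.05 and Gm14776 from -2.22 to -1.26.

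Of the 12 largest rises among genes called in both fits, with no overlap between ages and averaging 5 scaled CPM or more over the 8 libraries, 6 were immediate-early genes (Arc, Egr2, Junb, Egr3, Fosb and Fos). The others were Hapln4, a link protein of the perineuronal matrix, Mal, a myelin proteolipid, the heat shock factor Hsf4, the matricellular Ccn1, Rnf39 and Igfn1. The 12 largest falls under the same conditions included the matrix genes Eln, Tnc and Hapln1, the membrane protease Mmp14, the adhesion gene Cd24a, the endothelial gene Cd93, the thioredoxin inhibitor Txnip, the imprinted gene Mkrn3, the mitochondrial tRNA synthetase Lars2 and 3 genes without a descriptive name. Across 27 lists of neuronal and cellular processes, the shares that passed the test ranged from 0 of the 7 tested mitochondrially encoded genes to 22 of 27 immediate-early genes in the rising direction, and reached 21 of 28 genes of immature neurons and growth in the falling direction.

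**Figure D2:**
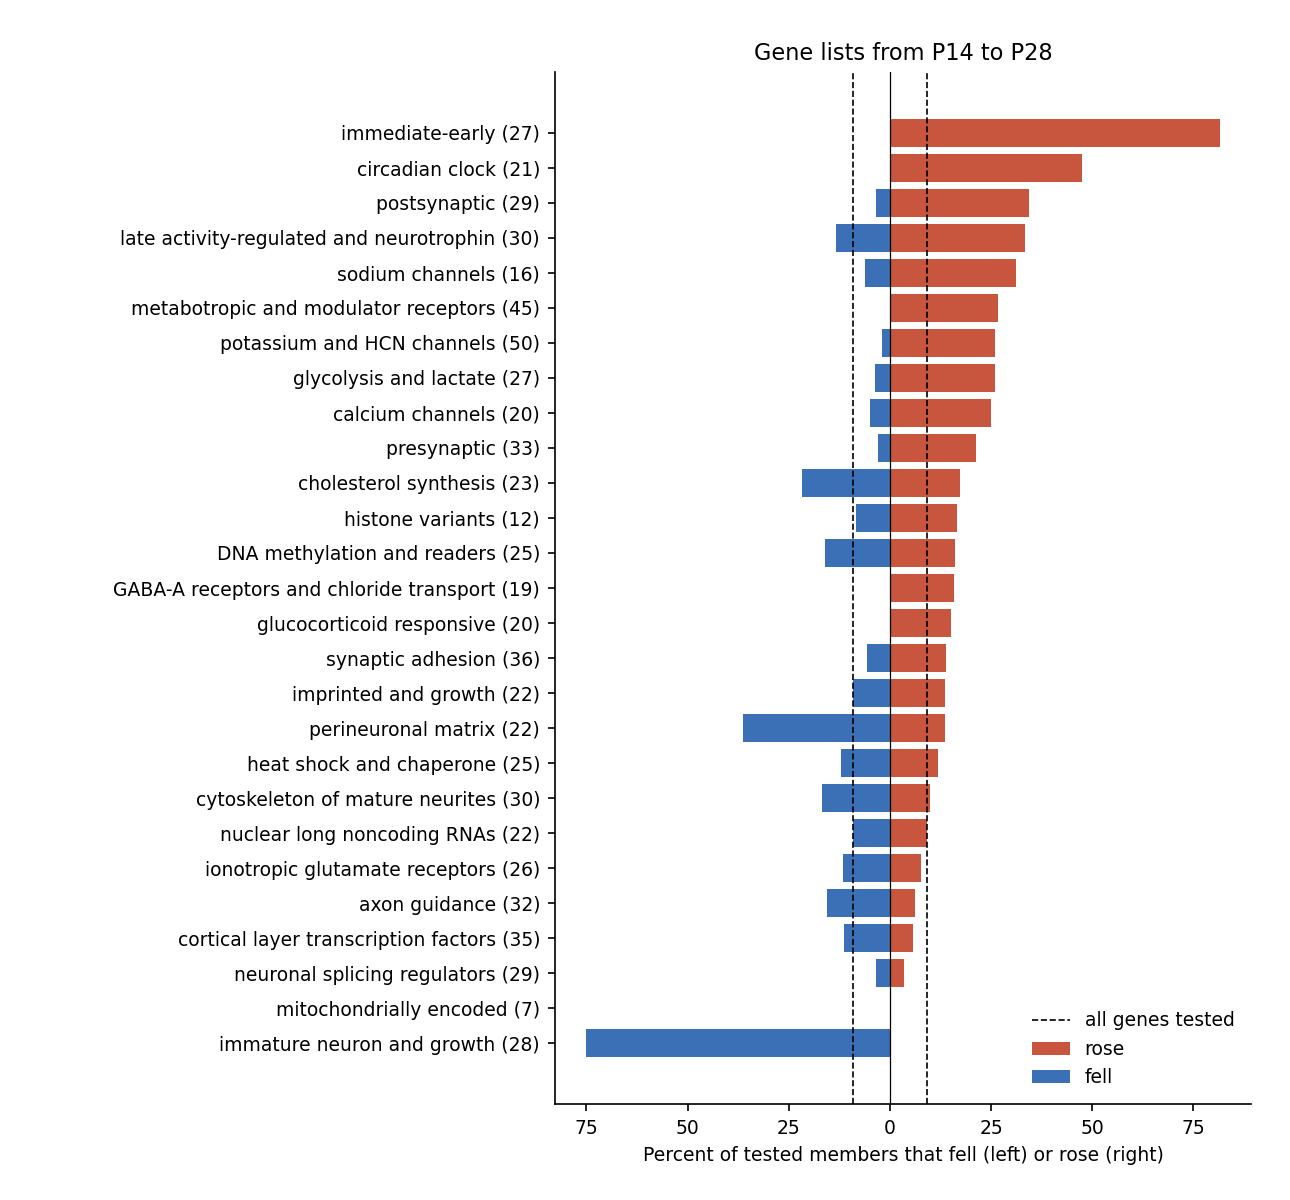
Percent of the tested members of each gene list (number in brackets) that rose (right) or fell (left) from P14 to P28 at a limma adjusted p below 0.05; dashed lines mark the 9.22% and 9.09% of all tested genes. Immediate-early and circadian clock genes extend farthest to the right, and genes of immature neurons and growth farthest to the left.

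Immediate-early genes were the list with the most members that rose. All 27 members were tested, 22 rose (81.5%, against 9.22% of all genes), none fell, and the median log2 fold change was 1.48. In these 22 genes every P28 library was above every P14 library, as in 14.2% of all genes, and 17 rose at least 2-fold. Leaving out any 1 library gave 22 or 23 rising members, and so did edgeR and the deposited values without rescaling, with 22 each. Bulk libraries cannot tell a change in the RNA of each nucleus from a change in the share of nuclei of a type, here and in every result below.

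Arc, a capsid-like protein of dendrites that promotes removal of AMPA receptors, lies at chr15:74669081-74672570 (GRCm38.p6). It was at 50.4, 34.1, 58.7 and 85.9 scaled CPM in P14 replicates 1 to 4 and at 968, 526, 559 and 469 in P28 replicates 1 to 4, or 57.3 ± 21.7 against 630.5 ± 228 (SD, n = 4 each). The log2 fold change was 3.46 ± 0.27 (SE; limma adjusted p = 9.92e-06). The lowest P28 library was well above the highest P14 library, and P28 replicate 1 was the highest of all.

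The AP-1 factors combine as dimers of Fos and Jun proteins. Junb (chr8:84976909-84978748) was at 20.4, 21.8, 24.7 and 24.8 at P14 and at 229, 184, 131 and 138 at P28, a log2 fold change of 2.84 ± 0.20 (adjusted p = 4.48e-06). Fos was at 19.4, 15.6, 19.3 and 39.8 and at 137, 85.4, 90.6 and 80.6 (2.1 ± 0.31, adjusted p = 8.32e-04), and P14 replicate 4 was the highest of its age. Fosb was at 6.01, 3.55, 3.87 and 8.56 and at 57.2, 20.3, 20.8 and 20 (2.24 ± 0.34, adjusted p = 9.13e-04), with P28 replicate 1 far above the other 3. None of the 3 genes overlapped between ages. Jun and Fosl2 rose less, with log2 fold changes of 0.86 and 1.27, and Jund was at 0.75 without passing the test (adjusted p = 0.0646).

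All 4 EGR zinc-finger factors rose. Egr1, the most studied of them in plasticity, went from 213 ± 64 to 588 ± 97.2 (SD, n = 4 each), a log2 fold change of 1.5 ± 0.28 (adjusted p = 0.00334). Egr2 was at 4.45, 3.38, 3.87 and 12 at P14 and at 61.1, 28.4, 38.9 and 40.6 at P28 (2.86 ± 0.33, adjusted p = 1.72e-04). Egr3 was at 19.6, 1.86, 19.2 and 16.6 and at 129, 53.1, 54.5 and 61.3 (2.63 ± 0.59, adjusted p = 0.00891). P14 replicate 2 was far below the other P14 libraries for Egr3, and without it the log2 fold change was 1.88 (adjusted p = 0.00109). Egr4 rose by 1.74 on the log2 scale (adjusted p = 4.76e-04).

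Nuclear receptors of the NR4A family, which bind DNA without a known ligand, also rose together. Nr4a1 was at 73.2, 168, 90 and 115 at P14 and at 527, 333, 356 and 354 at P28 (1.85 ± 0.22, adjusted p = 1.97e-04). Nr4a2 and Nr4a3 rose by smaller amounts, with log2 fold changes of 0.56 (adjusted p = 0.00918) and 0.66 (adjusted p = 0.00898). Npas4, a factor induced by calcium entry and tied to inhibitory synapses, was at 26.6, 46.6, 35.6 and 36.8 and at 153, 90.7, 101 and 75.7 (1.49 ± 0.21, adjusted p = 6.88e-04). For both Nr4a1 and Npas4 the ages did not overlap.

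Further members of the list lie outside the AP-1, EGR and NR4A families. Dusp1, a phosphatase that switches off MAP kinases, was at 22.1, 24.1, 25.2 and 32.8 at P14 and at 109, 94.3, 90 and 81.1 at P28 (1.83 ± 0.14, adjusted p = 9.92e-06). Btg2, an antiproliferative gene named here after its values were seen, was at 18.9, 17.9, 22.6 and 26.2 and at 91.4, 89.1, 73.2 and 57.3 (1.83 ± 0.26, adjusted p = 6.78e-04). The small gene Ier2 was at 7.3, 8.64, 9.1 and 8.23 and at 32.3, 30.6, 23.4 and 20.7 (1.61 ± 0.16, adjusted p = 6.85e-05). The ages were apart in all 3 genes. Sik1, a salt-inducible kinase, Ier5 and Klf10 also rose, by 1.48, 1.08 and 0.99 on the log2 scale, and Dusp6, the phosphatase specific for ERK, rose by 0.70. The members that did not pass, beside Jund, were Atf3 at 0.13, Klf2 at -0.21, Klf4 at -0.34 and Maff at -0.30.

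**Figure D3:**
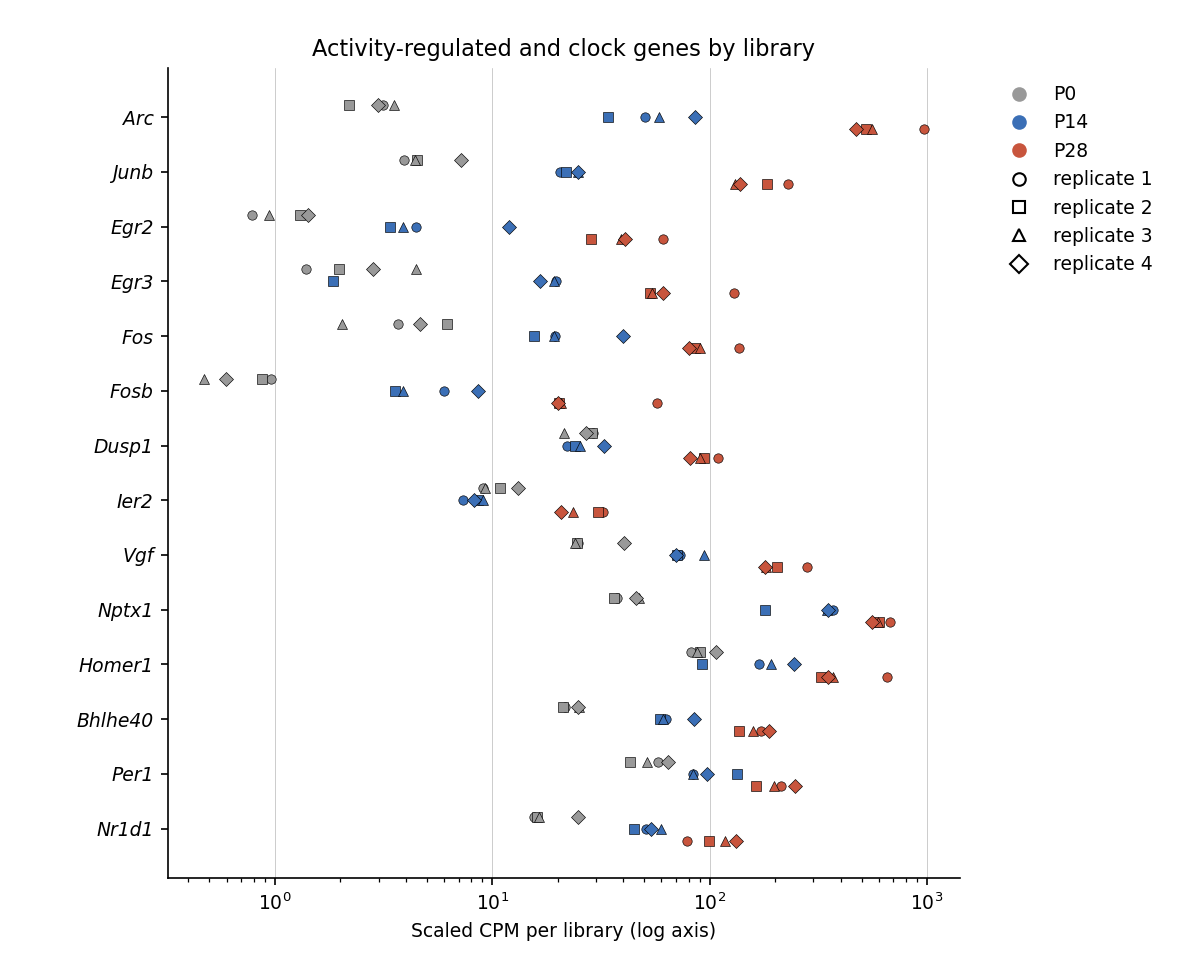
Scaled CPM (log axis) of 14 immediate-early, late activity-regulated and clock genes in each library of P0 (grey), P14 (blue) and P28 (red), with the marker shape giving the replicate. All 4 P28 values lie to the right of all 4 P14 values in each row; Arc spans 34.1 to 85.9 at P14 and 469 to 968 at P28.

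Since these genes moved together, the 250 bases before and 50 bases after their RefSeq start sites (GRCm38.p6) were searched on both strands for TGACGTCA, the palindromic cyclic AMP response element bound by CREB. A promoter entry existed for 21 of the 27 tested genes. TGACGTCA was in 3 of the 21 (14.3%: Btg2, Dusp1 and Maff), against 400 of 11548 tested genes with an entry (3.46%). Its half-site TGACG, which every full element also contains, was in 16 of 21 (76.2%), against 34.2% of all. Of these 16, 4 (Atf3, Klf2, Klf4 and Maff) did not rise. GCGGGGGCG, a binding site of the EGR factors themselves, was in 5 of 21 (23.8%), against 6.48%, and 2 of these 5 (Klf2 and Klf4) did not rise. Among the 18 clock genes with an entry, another list with rising members, TGACGTCA was in 1 (5.56%), the half-site in 6 (33.3%) and GCGGGGGCG in 1 (5.56%). The sequences shown are the 250 bases before the start site for the 3 genes with the full element, of which 2 rose and Maff did not, and for Junb and Fos, which rose and held a half-site. Each is written 5′ to 3′ on the strand of its gene, with TGACGTCA in capitals in the first 3 and TGACG in capitals in the last 2. They lie at chr17:26508473-26508722 (minus strand), chr1:134079156-134079405 (minus), chr15:79347270-79347519 (plus), chr8:84978749-84978998 (minus) and chr12:85473640-85473889 (plus).
Dusp1: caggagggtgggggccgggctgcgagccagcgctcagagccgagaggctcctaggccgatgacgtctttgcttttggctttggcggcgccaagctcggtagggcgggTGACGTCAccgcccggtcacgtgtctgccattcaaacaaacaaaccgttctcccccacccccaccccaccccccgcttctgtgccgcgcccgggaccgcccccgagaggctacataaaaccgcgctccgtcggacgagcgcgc
Btg2: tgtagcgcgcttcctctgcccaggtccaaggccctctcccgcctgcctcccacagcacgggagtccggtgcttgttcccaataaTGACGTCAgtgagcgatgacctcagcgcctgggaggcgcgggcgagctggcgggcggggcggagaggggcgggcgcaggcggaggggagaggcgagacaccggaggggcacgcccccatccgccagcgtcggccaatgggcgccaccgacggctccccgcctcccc
Maff: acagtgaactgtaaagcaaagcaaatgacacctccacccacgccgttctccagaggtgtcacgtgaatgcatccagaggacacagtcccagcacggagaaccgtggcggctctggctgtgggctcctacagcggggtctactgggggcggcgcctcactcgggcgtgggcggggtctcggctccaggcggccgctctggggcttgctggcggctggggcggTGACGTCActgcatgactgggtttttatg
Junb: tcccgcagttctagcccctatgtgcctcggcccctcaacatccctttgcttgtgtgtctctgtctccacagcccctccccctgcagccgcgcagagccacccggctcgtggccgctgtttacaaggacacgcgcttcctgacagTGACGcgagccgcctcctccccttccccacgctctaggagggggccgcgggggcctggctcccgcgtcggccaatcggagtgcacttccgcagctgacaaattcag
Fos: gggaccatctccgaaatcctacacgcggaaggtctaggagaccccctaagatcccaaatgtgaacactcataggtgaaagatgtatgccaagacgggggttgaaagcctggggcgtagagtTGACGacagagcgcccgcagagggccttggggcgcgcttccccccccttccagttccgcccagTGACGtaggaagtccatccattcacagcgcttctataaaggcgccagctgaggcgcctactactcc
The element begins 143 bases before the start site in Dusp1, 166 in Btg2 and 29 in Maff, and the half-site begins 106 bases before it in Junb and 129 and 66 before it in Fos. Maff, with the element nearest to its start site, was at 1.33, 0.572, 1.06 and 0.575 scaled CPM at P14 and at 0.189, 0.663, 0.803 and 0.862 at P28 and did not pass the test (adjusted p = 0.425). A match of letters is a description of these windows and not a measured binding site.

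Late activity-regulated genes and neurotrophins moved in both directions. Of 30 tested members 10 rose (33.3%, against 9.22% of all genes) and 4 fell (13.3%, against 9.09%), with a median of 0.41. Without rescaling of the deposited values 6 rose and 6 fell. Vgf, a neuropeptide precursor, was at 73.3, 70.7, 94.3 and 69.8 at P14 and at 281, 203, 181 and 179.6 at P28 (1.44 ± 0.18, adjusted p = 3.40e-04). Nptx1, a secreted pentraxin that gathers AMPA receptors, was at 369, 179.8, 347 and 349.7 and at 678, 602, 594 and 559 (1.02 ± 0.19, adjusted p = 0.00349). P14 replicate 2 was the lowest library for Nptx1, and without it the log2 fold change was 0.77 (adjusted p = 8.60e-05). Homer1, whose short form is itself induced by activity and uncouples postsynaptic scaffolds, was at 168, 92.2, 192 and 244 and at 656, 325, 369 and 350.4 (1.31 ± 0.27, adjusted p = 0.00533). The deposited values are per gene and do not separate the short and long forms.

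Gadd45b, linked to removal of DNA methylation after activity, rose by 1.31 on the log2 scale (adjusted p = 0.0011), Pcsk1, which cleaves prohormones, by 1.58 and the cyclooxygenase Ptgs2 by 1.31. Among those that fell was the growth factor Igf1, at 19.8, 5.58, 9.32 and 8.41 and at 4.59, 3.73, 4.6 and 3.96 (-1.12 ± 0.31, adjusted p = 0.0267). Its call was lost without any 1 of the 4 P28 libraries, with adjusted p between 0.0525 and 0.0693. The list count was less stable than that of the immediate-early genes: 6 members rose without P28 replicate 1 and 6 without P28 replicate 3, and the falling count was 0 without P28 replicate 1, 2 or 3 and 2 without P14 replicate 1, 3 or 4 or P28 replicate 4.

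Clock genes formed the list with the next largest share of rising members. None of the 21 tested fell, the median was 0.44 and 10 rose (47.6%, against 9.22% of all genes). Without P14 replicate 2 the count was 12, and it lay between 7 and 12 as 1 library was left out. On the deposited values without rescaling 7 rose and none fell. The members that rose belong mostly to the negative limb and the output of the clock. Per1, shared with the immediate-early list, was at 83.6, 134, 84.1 and 97.5 at P14 and at 213, 163, 198 and 246 at P28 (1.05 ± 0.17, adjusted p = 0.0013). Nr1d1, a repressor of Bmal1 transcription, was at 51, 44.7, 59.7 and 53.5 and at 78.4, 99.2, 118 and 132 (1.01 ± 0.18, adjusted p = 0.00208). The repressors Bhlhe40 and Bhlhe41 were at 66.9 ± 12.3 and 12.3 ± 1.8 at P14 and at 163 ± 21.9 and 26.1 ± 2.42 at P28 (SD, n = 4 each), with log2 fold changes of 1.29 (adjusted p = 6.58e-05) and 1.06 (adjusted p = 3.50e-04). The ages were apart in these 4 genes. Per2 rose by 0.82 and the output factor Dbp by 1.06 on the log2 scale. The activators were flat by value, with Clock at 0.03 (adjusted p = 0.833) and Bmal1 at -0.01 (adjusted p = 0.96). The labels give no hour of collection, and its part in these values was not tested. In the glucocorticoid-responsive list, 3 of 20 members rose (15.0%, against 9.22% of all genes). Of these, Dusp1 and Per1 are shared with the lists above, and the third was the glycerol phosphate dehydrogenase Gpd1 at 1.4 (adjusted p = 1.17e-04). The classical responders Fkbp5 at -0.58 and Tsc22d3 at -0.29 did not pass with all libraries and fell without P14 replicate 2, at -0.75 (adjusted p = 0.0122) and -0.46 (adjusted p = 0.0272).

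Genes of immature neurons and growth moved the other way: 21 of 28 tested fell (75%, against 9.09% of all genes), none rose, and the median was -0.65. In 20 of the 28 every P28 library was below every P14 library, against 13.2% of all genes. Leaving out 1 library gave 17 to 22 falling members. Cd24a, a surface glycoprotein of differentiating neurons, was at 53.1, 33.6, 48.8 and 43.4 at P14 and at 10.2, 9.45, 9.29 and 10.2 at P28 (-2.12 ± 0.12, adjusted p = 8.09e-07). It had already been lower at P14 than at P0, where it stood at 1071, 1104, 1085 and 1062. Marcks and Marcksl1, actin-linked substrates of protein kinase C in growth cones, followed with values of 255, 251, 299.9 and 323 and 339, 329.5, 346 and 317 at P14 and of 109, 115, 113 and 99.6 and 111, 110.4, 92 and 103 at P28. Their log2 fold changes were -1.36 ± 0.10 (adjusted p = 9.82e-06) and -1.68 ± 0.10 (adjusted p = 1.26e-06). No P28 library of either gene reached a P14 library.

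The collapsin response mediators, which couple guidance cues to microtubules, fell as well. Dpysl3 was at 213, 157, 198 and 152 at P14 and at 61, 72.5, 69.8 and 67.2 at P28 (-1.39 ± 0.12, adjusted p = 2.69e-05), Dpysl5 had a log2 fold change of -1.53 and Crmp1 of -0.65. Among the tubulins of growing neurites, Tubb2b was at 132 ± 29.1 and at 45.8 ± 4.69 (SD, n = 4 each; -1.5 ± 0.14, adjusted p = 4.55e-05), and Tubb2a had a log2 fold change of -0.98. Gap43, the growth-cone phosphoprotein, was at 438, 320.2, 421 and 384 and at 229, 234, 209 and 217 (-0.80 ± 0.11, adjusted p = 6.43e-04). Stmn2, a tubulin-binding phosphoprotein, fell by 0.87 on the log2 scale (adjusted p = 1.60e-04). Members that did not pass included Tubb3 at -0.30 and Basp1 at -0.34, which both fell without P14 replicate 2.

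Of 32 guidance genes tested, 2 rose (6.25%, against 9.22% of all genes) and 5 fell (15.6%, against 9.09%). The median was -0.04 (-0.16 without P14 replicate 2). The deposited values without rescaling gave 2 and 9. With the scaled values the falling count ranged from 2 to 8 as 1 library was left out, with 2 without P14 replicate 1, P14 replicate 4, P28 replicate 2, 3 or 4, or P0 replicate 2, 3 without P14 replicate 3, P28 replicate 1 or P0 replicate 4, and 8 without P14 replicate 2. Efnb3, a transmembrane ephrin, was at 127, 134, 131 and 125 at P14 and at 87, 92.2, 86 and 91.1 at P28 (-0.54 ± 0.08, adjusted p = 0.00106). Draxin, a secreted repellent, was low at both ages, at 2.24, 1.6, 2.24 and 1.33 and at 0.616, 0.872, 0.760 and 0.638 (-0.93 ± 0.15, adjusted p = 0.00145), after 185, 199.6, 213 and 185 at P0. The 2 that rose were the netrin receptor Unc5a, at 106, 118, 119 and 108 and at 187, 178, 167 and 184 (0.66 ± 0.08, adjusted p = 1.80e-04), and Cntn2. Cntn2, a contactin of axons that clusters potassium channels beside the node, was at 1109, 1082, 1199.8 and 1156 at P0, at 119, 81.1, 107 and 102 at P14 and at 168, 173, 181 and 169.7 at P28. Its change from P0 to P14 was -3.48 and that from P14 to P28 was 0.77 ± 0.11 (adjusted p = 5.42e-04) on the log2 scale; both contrasts share the P14 libraries.

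Transcripts of the perineuronal matrix list moved in both directions. Of 22 members 3 rose (13.6%, against 9.22% of all genes), 8 fell (36.4%, against 9.09%) and 11 did not pass. Between 6 and 8 fell as 1 library was left out. The genes of the link proteins, which tie proteoglycans to hyaluronan, moved apart. Hapln4 (chr8:70083529-70090862) was at 12.7, 7.18, 13.7 and 15.4 at P14 and at 76.6, 70.1, 55.2 and 59.5 at P28 (2.41 ± 0.23, adjusted p = 4.99e-05). Hapln1 (chr13:89540529-89611832) was at 25.9, 11.7, 24.3 and 18.4 and at 6.16, 5.62, 3.97 and 5.52 (-1.78 ± 0.27, adjusted p = 8.67e-04), after 0.662, 1.9, 1.49 and 1.42 at P0. Neither gene overlapped between P14 and P28, and P14 replicate 2 was the lowest P14 library for both.

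Tnc, the glycoprotein tenascin-C of the embryonic and perinatal matrix, was at 20, 22.8, 21 and 15 at P14 and at 3.13, 3.04, 2.07 and 3.22 at P28 (-2.59 ± 0.15, adjusted p = 1.14e-06). Vcan, the proteoglycan versican, was at 48.8, 66.6, 46.1 and 42.6 and at 18.2, 18.7, 20.7 and 23.6 (-1.3 ± 0.14, adjusted p = 8.39e-05). Ptprz1, a receptor phosphatase that is also a chondroitin sulfate proteoglycan, was at 121, 76.5, 126 and 92.6 and at 34.9, 39.5, 38.9 and 50.7 (-1.32 ± 0.18, adjusted p = 4.70e-04). All 3 genes are also expressed by astrocytes or oligodendrocyte precursors, of whose markers 4 of 15 and 4 of 12 fell (values below), and the part of those cells was not tested. Brevican, Bcan, fell by 1.05 on the log2 scale (adjusted p = 0.00108). Aggrecan, Acan, the proteoglycan typical of nets around interneurons, was at -0.53 and did not pass (adjusted p = 0.294), nor did tenascin-R, Tnr, at 0.55 (adjusted p = 0.246; 0.14 without P14 replicate 2). Hapln2, found at nodes of Ranvier, and the membrane protease Mmp17 were the others that rose, by 1.54 and 0.66.

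**Figure D4:**
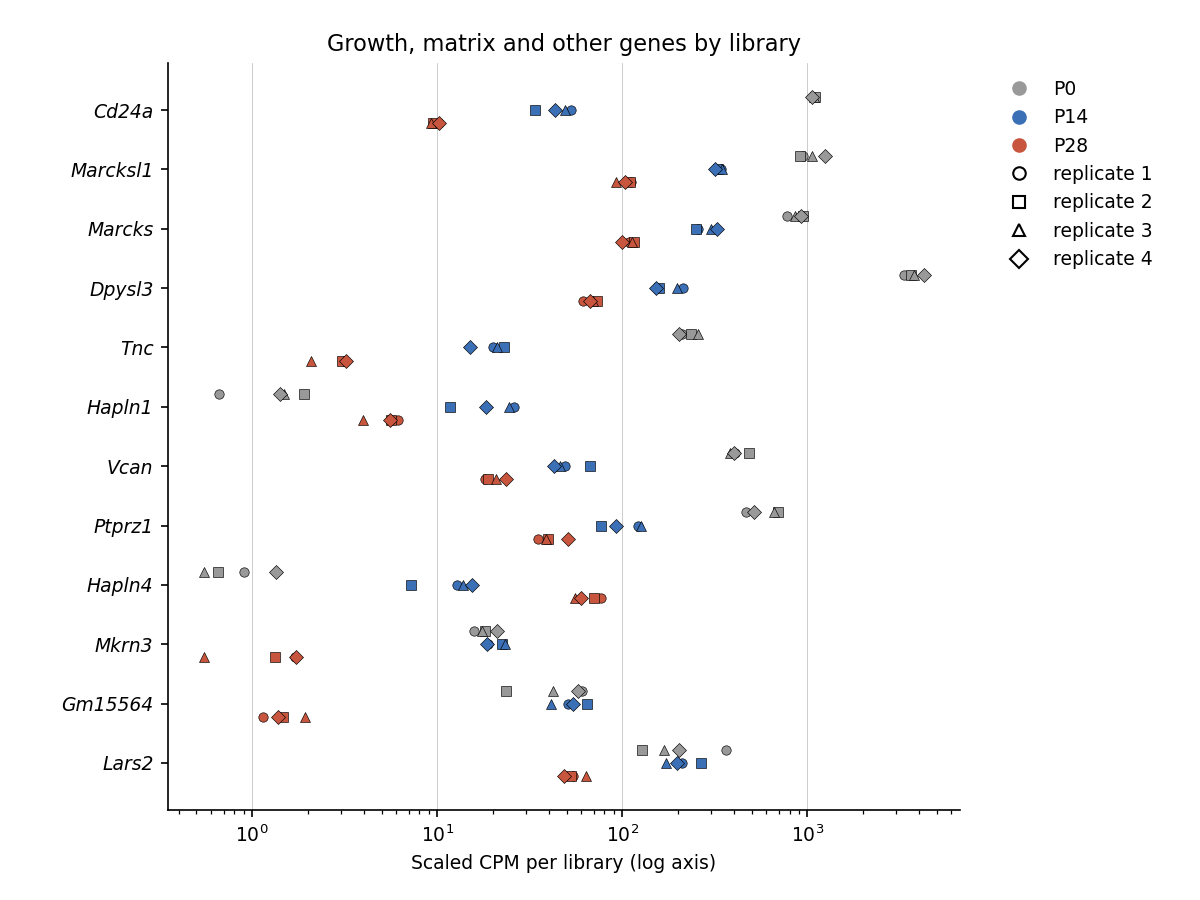
Scaled CPM (log axis) of growth genes, matrix genes and 3 of the largest falls in each library of P0 (grey), P14 (blue) and P28 (red), with the marker shape giving the replicate. Hapln4 is higher in every P28 library than in every P14 library and the other 11 genes are lower.

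Of 33 presynaptic genes 7 rose (21.2%, against 9.22% of all genes) and 1 fell (3.03%, against 9.09%). The median was 0.22 (0.06 without P14 replicate 2). Without rescaling, the deposited values gave 4 of each. Without P28 replicate 1, 2 or 4 the rising count was 4, and without P14 replicate 2 the falling count was 3. Vamp1, the vesicle SNARE of fast-firing cells, was at 61.5, 53.1, 61.1 and 64.5 at P14 and at 149, 131, 116 and 107 at P28 (1.05 ± 0.12, adjusted p = 1.14e-04). Rims3, a small active-zone protein, was at 109.8, 59.6, 79.2 and 107 and at 226, 153, 184 and 189 (1.11 ± 0.18, adjusted p = 0.00137). Bassoon, Bsn, a scaffold of the active zone, went from 287 ± 70.2 to 448 ± 30.1 (SD, n = 4 each; 0.68 ± 0.16, adjusted p = 0.0111). The ages did not overlap for any of these.

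The postsynaptic list held 29 tested genes, of which 10 rose (34.5%, against 9.22% of all genes) and 1 fell (3.45%, against 9.09%). The median was 0.13 (0.08 without P14 replicate 2). Between 7 and 11 rose as 1 library was left out, and 3 fell without P14 replicate 2. On the deposited values without rescaling 6 rose and 5 fell. Ddn, dendrin, was at 241, 238, 281 and 256 at P14 and at 466, 501, 437 and 479 at P28 (0.89 ± 0.11, adjusted p = 3.05e-04). Dlgap1, which links PSD-95 to Shank, was at 291, 208, 309.7 and 268 and at 462, 433, 423 and 419 (0.71 ± 0.12, adjusted p = 0.00137). Shank1 had 198 ± 7.28 against 297 ± 33.6 (SD, n = 4 each; 0.58 ± 0.10, adjusted p = 0.00186). The exchange factors Iqsec1 and Kalrn rose by 0.78 and 0.82 on the log2 scale. Homer3 was the member that fell, at 6.2, 5.89, 4.4 and 4.03 and at 1.99, 2.76, 1.9 and 3.35 (-0.92 ± 0.19, adjusted p = 0.00607), while its paralogue Homer1 rose as given above. The gene of PSD-95, Dlg4, was at 0.00 (adjusted p = 0.992).

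Adhesion molecules across the cleft gave 5 of 36 that rose (13.9%, against 9.22% of all genes) and 2 that fell (5.56%, against 9.09%). On the deposited values without rescaling 2 rose and 8 fell, where 674 of all 15759 genes rose and 3862 fell. Without P14 replicate 2 the counts were even, with 6 each. Cbln4, a secreted organiser of inhibitory synapses, was at 8.78, 4.26, 8.91 and 8.31 at P14 and at 25.8, 17.9, 19.9 and 17.8 at P28 (1.41 ± 0.22, adjusted p = 9.67e-04). Lrfn1, a leucine-rich repeat protein that binds PSD-95, rose by 0.82 (adjusted p = 0.0035). Nlgn3, neuroligin-3, was at 91.9, 123, 94.9 and 107 and at 73.2, 83.4, 73 and 71.7 (-0.46 ± 0.10, adjusted p = 0.00955). The rising count was 2 without P14 replicate 4, P28 replicate 1 or P28 replicate 3 and 3 without P28 replicate 2, P28 replicate 4, P0 replicate 2 or P0 replicate 3. The falling count was 1 without P14 replicate 3, P14 replicate 4 or any 1 P28 library.

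Among ionotropic glutamate receptor genes 2 of 26 rose (7.69%, against 9.22% of all genes) and 3 fell (11.5%, against 9.09%). The median was 0.02 (0.06 without P14 replicate 2). The deposited values without rescaling gave 1 and 5. Grin1, the obligatory subunit of NMDA receptors, was at 235, 195, 237 and 185 at P14 and at 381, 341, 325 and 346 at P28 (0.71 ± 0.13, adjusted p = 0.003). Grin2c was at 27.1, 24.8, 19.6 and 11.4 and at 9.99, 9.56, 7.65 and 11.5 (-1.0 ± 0.24, adjusted p = 0.013), with P14 replicate 4 just below the highest P28 library. Grin2d was at 14.6, 19.5, 12.2 and 11.5 and at 8.19, 7.54, 7.69 and 7.21 (-0.85 ± 0.17, adjusted p = 0.00514) without overlap. Grin2a and Grin2b, given for the known exchange of these subunits and not by the rule for named genes, did not pass. Grin2a was at 235, 229, 273 and 257 at P14 and at 370.2, 297, 286 and 253 at P28 (0.27 ± 0.12, adjusted p = 0.149), after 17.6, 14.2, 19.6 and 17.2 at P0. Grin2b was at 596, 218, 638 and 468 and at 665, 522, 535 and 541 (0.34 ± 0.27, adjusted p = 0.4), and P14 replicate 2 was the lowest library, without which the value was 0.00. Neto2, an auxiliary subunit of kainate receptors, fell by 0.61 on the log2 scale (adjusted p = 0.00444). The 2 that rose were 1 without P14 replicate 4, P0 replicate 2 or any 1 P28 library, each of which ended the call of the kainate subunit Grik3 (log2 fold change 0.74, adjusted p = 0.0357 with all libraries; 0.44 without P14 replicate 2), and 5 members fell without P14 replicate 2.

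Among receptors for modulators and the metabotropic glutamate and GABA receptors, 12 of 45 rose (26.7%, against 9.22% of all genes), none fell and 33 did not pass. The median was 0.42, or 0.26 without P14 replicate 2. In 20 of the 45 every P28 library was above every P14 library and in none were all below, against 14.2% and 13.2% of all genes. Without rescaling, 9 rose and 4 fell. Hrh3, the histamine receptor that inhibits release, was at 41.4, 48.3, 43.6 and 41.1 at P14 and at 95.1, 116, 98.6 and 126 at P28 (1.3 ± 0.14, adjusted p = 7.96e-05). Adrb1, a beta-adrenergic receptor, was at 25.9, 21.1, 28.5 and 26.9 and at 57.9, 52.6, 45.5 and 45.2 (0.96 ± 0.19, adjusted p = 0.00378). Among presynaptic metabotropic glutamate receptors, Grm2 was at 58.7, 35.6, 68.8 and 47.9 and at 85.5, 109.6, 97.5 and 97.7 (0.92 ± 0.19, adjusted p = 0.0065) and Grm4 went from 26.5 ± 3.0 to 42.3 ± 3.25 (SD, n = 4 each; adjusted p = 0.00311). All 4 genes were without overlap. The muscarinic receptor Chrm4 rose by 1.42, the somatostatin receptor Sstr2 by 0.78 and the adrenergic Adra1d by 1.17. The serotonin receptor Htr2a was at 21.7, 1.57, 23.4 and 10.4 and at 26.4, 24.3, 25.6 and 22.4 and did not pass (1.26 ± 0.58, adjusted p = 0.146). P14 replicate 2 was its lowest library, without which the log2 fold change was 0.48 (adjusted p = 0.169).

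Inhibitory receptors gave 3 of 19 that rose (15.8%, against 9.22% of all genes) and none that fell. The chloride exporter Slc12a5 (KCC2), which makes GABA hyperpolarising, was at 404, 434, 422 and 421 at P14 and at 612, 525, 499 and 533 at P28 (0.36 ± 0.10, adjusted p = 0.0229). The others were the kinase Wnk2 at 0.42 and the extrasynaptic subunit Gabrd at 0.33 (adjusted p = 0.049). None of the 3 was called on the deposited values without rescaling, where 5 members fell, and the count was 1 without P28 replicate 1 and 0 without P28 replicate 4. Without P14 replicate 2, 4 rose and 3 fell.

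Of 50 potassium and HCN channel genes 13 rose (26%, against 9.22% of all genes) and 1 fell (2.00%, against 9.09%). The median was 0.40 (0.20 without P14 replicate 2, where 2 fell), and 8 rose without P28 replicate 1 or P28 replicate 2. Without rescaling, 8 rose and 4 fell. Kcnc1, a Kv3 channel that repolarises fast spikes, was at 98.7, 69.5, 91.3 and 87 at P14 and at 140.1, 146, 132 and 138 at P28 (0.69 ± 0.11, adjusted p = 9.72e-04). Kcnab3, a beta subunit of Kv1 channels, was at 31.7, 30.7, 24.7 and 29.7 and at 64.5, 59.9, 60.7 and 53.4 (1.02 ± 0.14, adjusted p = 4.24e-04). Neither overlapped between ages. Kcna2 rose by 0.65, and Kcnip3 and the GIRK subunit Kcnj9 by 0.60 and 0.51. Kcnmb4, a subunit of BK channels, had the fall, -0.48 (adjusted p = 0.0329), which was not called without P14 replicate 3 or any 1 P28 library.

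Of 16 sodium channel genes 5 rose (31.2%, against 9.22% of all genes) and 1 fell (6.25%, against 9.09%). The rising count was 3 without any 1 P28 library, and the falling count was 3 without P14 replicate 2. On the deposited values without rescaling 2 rose and 4 fell, where 674 of all 15759 genes rose and 3862 fell. Scn4b, a beta subunit that enables resurgent current, was at 46.2, 52.9, 60.5 and 44.2 at P14 and at 99.9, 109.7, 109 and 102 at P28 (1.05 ± 0.14, adjusted p = 3.54e-04), after 1.32, 1.39, 1.02 and 0.823 at P0, and P14 and P28 did not overlap. The alpha subunit Scn1a was at 0.29 without passing (adjusted p = 0.239; 0.12 without P14 replicate 2). Fgf13, an intracellular modulator of sodium channels, fell, at 122, 80.3, 122 and 129 and at 74.9, 72, 64 and 63.7 (-0.70 ± 0.14, adjusted p = 0.00453). Of 20 calcium channel and release channel genes 5 rose and 1 fell, with 2 or 3 rising without P14 replicate 1, 3 or 4, P0 replicate 2 or any 1 P28 library, and 2 falling without P14 replicate 2. Here too 2 rose and 4 fell on the deposited values. The inositol trisphosphate receptors parted: Itpr1, the neuronal form, was at 218, 135, 225 and 180.1 and at 398, 354, 344 and 332 (0.94 ± 0.15, adjusted p = 0.00124), and Itpr2, the form typical of astrocytes, was at 17.6, 13.7, 15.5 and 11.7 and at 8.67, 7.92, 5.79 and 6.0 (-1.0 ± 0.23, adjusted p = 0.0096).

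Among DNA methylation enzymes and readers 4 of 25 rose and 4 fell (16.0% each, against 9.22% and 9.09% of all genes). On the deposited values without rescaling 2 rose and 7 fell. Dnmt3a, which writes the non-CG methylation of maturing neurons, was at 162, 182, 193 and 193 at P0, 363, 268, 363 and 350.2 at P14 and 206, 199.7, 205 and 249.8 at P28. The change from P14 to P28 was -0.64 ± 0.12 (adjusted p = 0.00264), with no overlap. Tet1, a methylcytosine oxidase, was at 42.3, 28.7, 47.6 and 39.5 and at 17.1, 18.8, 20.9 and 19.5 (-1.01 ± 0.17, adjusted p = 0.00178). The rising count was 2 without P28 replicate 1, 3 or 4 and the falling count 2 without P28 replicate 2.

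Of 35 cortical layer transcription factors 2 rose (5.71%, against 9.22% of all genes) and 4 fell (11.4%, against 9.09%). The median was -0.13 (-0.18 without P14 replicate 2), and 24 were lower and 11 higher by value. In 9 of the 35 every P28 library was below every P14 library, against 13.2% of all genes. In 2 every P28 library was above, against 14.2%. Bhlhe22, a factor of upper-layer and area identity, was at 51.4, 46.1, 59.8 and 65.2 at P14 and at 32.2, 35.9, 28.2 and 34.1 at P28 (-0.75 ± 0.12, adjusted p = 0.00106), without overlap. The falling count was 7 without P14 replicate 2 and 2 without P28 replicate 3; the rising count was 4 without P14 replicate 2 and 1 without P14 replicate 4, any 1 P28 library or any 1 P0 library. On the deposited values without rescaling 18 fell and 1 rose, where 3862 of all 15759 genes fell and 674 rose. Of 29 splicing regulators 1 rose and 1 fell (3.45% each, against 9.22% and 9.09% of all genes). Ptbp1 rose, at 0.51 (adjusted p = 0.0108), and its neuronal paralogue Ptbp2 fell, at -0.47 (adjusted p = 0.0314). Without rescaling, none of the splicing regulators rose and 5 fell. The fall of Ptbp2 was not called without P14 replicate 4 or P28 replicate 1, 2 or 4, and the rise of Ptbp1 was not called on the deposited values without rescaling. The rising count was 4 without P14 replicate 2 and 2 without P14 replicate 1 or P0 replicate 4, and the falling count 2 without P14 replicate 2.

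Among imprinted and growth genes 3 of 22 rose (13.6%, against 9.22% of all genes) and 2 fell (9.09%, the share of all genes). The falling count was 5 without P14 replicate 2 and 1 without P28 replicate 1 or 4. None fell without P14 replicate 4 or P28 replicate 2. Without rescaling, 3 rose and 7 fell. Dlk1, a Notch-like membrane protein expressed from the paternal allele, was at 11, 13.8, 13.7 and 10.2 at P0, 0.684, 0.801, 2.27 and 1.91 at P14 and 14.2, 5.06, 6.8 and 5.55 at P28. Its log2 fold change from P14 to P28 was 2.11 ± 0.33 (adjusted p = 0.00105), against -2.81 from P0 to P14; its mean over the 8 libraries was below the 5 scaled CPM set for the largest rises. Mkrn3 was not in the list. This imprinted gene, expressed from the paternal allele, lies in the Prader-Willi region (chr7:62417593-62420153) and was at 18.7, 22.5, 23.2 and 18.6 at P14 and at 1.7, 1.33, 0.549 and 1.72 at P28 (-3.59 ± 0.21, adjusted p = 1.14e-06). It was at 15.8, 18.2, 17.5 and 21.1 at P0, so P0 and P14 overlapped and P28 alone was low. Its neighbour in the region, Magel2, was at -0.52 and did not pass (-0.23 without P14 replicate 2). Ube3a of the same region fell by 0.60 on the log2 scale (adjusted p = 0.0189), which was not called without P14 replicate 4, P28 replicate 1 or P28 replicate 2.

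Gm15564, an unnamed gene model at chr16:35966751-35983329, had the largest fall of all named genes, at 50.8, 64.5, 41.2 and 54.1 at P14 and 1.14, 1.47, 1.94 and 1.37 at P28 (-4.74 ± 0.26, adjusted p = 8.09e-07). It was at 60.6, 23.6, 42.4 and 57.7 at P0. Lars2, the mitochondrial leucyl-tRNA synthetase, had the same course, at 363, 128, 167 and 203 at P0, 211, 265, 172 and 198 at P14 and 53.8, 52.9, 63.6 and 48.5 at P28 (-1.93 ± 0.25, adjusted p = 3.38e-04). For these 2 genes and for Mkrn3 the P0 libraries overlapped the P14 libraries and the P28 libraries lay below both, and as each age has a table of its own, age and table cannot be told apart. Txnip, a glucose-responsive inhibitor of thioredoxin, was at 20.7, 39, 16 and 16.1 at P14 and at 6.91, 4.71, 6.0 and 6.06 at P28 (-1.78 ± 0.30, adjusted p = 0.00157). Hsf4 was at 2.02, 2.2, 1.48 and 1.8 and at 10.3, 9.7, 10.5 and 9.54 (2.16 ± 0.17, adjusted p = 1.13e-05), with 4 P28 values close together. Rnf39, a RING finger gene, was at 2.13, 1.46, 1.93 and 1.69 and at 10.1, 8.76, 7.39 and 10.9 (2.08 ± 0.19, adjusted p = 3.98e-05). Ccn1, a matricellular protein that is also an early-response gene, was at 6.35, 6.67, 5.57 and 7.41 and at 42.7, 32.4, 24.5 and 21.4 (2.09 ± 0.23, adjusted p = 1.14e-04), and its P0 values of 5.78, 10.9, 7.47 and 5.61 overlapped those of P14. Igfn1, better known from muscle, was at 0.602, 0.292, 0.236 and 0.299 at P0, 6.62, 13, 9.02 and 12.8 at P14 and 39.9, 39.8, 47 and 46.9 at P28 (2.06 ± 0.21, adjusted p = 6.35e-05).

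Glycolytic genes gave 7 of 27 that rose (25.9%, against 9.22% of all genes) and 1 that fell (3.70%, against 9.09%). The rising count was 4 without P28 replicate 2, and on the deposited values without rescaling 2 rose and 2 fell. The falling count was 6 without P14 replicate 2 and 0 without any 1 of the other P14 or P28 libraries. Pdk2 and Pdk1, kinases that hold back pyruvate dehydrogenase, rose by 0.74 and 0.58; Pdk1 was at 82.9, 61.4, 98.4 and 83.2 at P14 and at 120.3, 117, 121 and 122 at P28 (adjusted p = 0.00506). In cholesterol synthesis 4 of 23 rose (17.4%, against 9.22% of all genes) and 5 fell (21.7%, against 9.09%), or 1 and 8 on the deposited values. Hmgcs1, HMG-CoA synthase, was at 375, 262, 380.2 and 418 and at 220.3, 240.0, 223 and 227 (-0.63 ± 0.14, adjusted p = 0.0087), without overlap. The rising count of cholesterol genes was 1 or 2 without any 1 P14 library other than replicate 2, any 1 P28 library, P0 replicate 2 or P0 replicate 3, and the falling count 3 without P28 replicate 1 or P28 replicate 3. Of 25 heat shock and chaperone genes 3 rose and 3 fell, shares near the 9.22% and 9.09% of all genes. In that list 5 rose without P14 replicate 1. None of the 7 tested mitochondrially encoded genes passed in either direction by limma, edgeR or DESeq2 (0 at an unadjusted p below 0.05), with values between -0.13 and 0.21.

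Some markers of other cells also changed. Oligodendrocyte markers rose in 5 of 15 (33.3%, against 9.22% of all genes), with none falling and a median of 0.59 (0.33 without P14 replicate 2). Mal was at 52.2, 13.5, 38.9 and 55.5 at P14 and at 205, 156, 139.8 and 127 at P28 (2.12 ± 0.35, adjusted p = 0.00143; 1.67 without P14 replicate 2), and Opalin was at 5.4, 3.43, 2.77 and 7.19 and at 14.6, 13.8, 12 and 9.54 (1.38 ± 0.24, adjusted p = 0.00202). Mbp, a major myelin gene, was at 0.10 and did not pass (-0.18 without P14 replicate 2). The summed level of the 15 markers was 2729, 1238, 1977 and 2524 at P14 and 3451, 2698, 2490.0 and 2199 at P28, with P14 replicate 2 the lowest of the 8 libraries; P14 replicate 3 was also below every P28 library and the other 2 P14 libraries lay within the P28 range.

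Precursor markers fell in 4 of 12 (33.3%, against 9.09% of all genes). On the deposited values without rescaling, where 3862 of all 15759 genes fell, 7 precursor, 8 astrocyte and 11 vascular markers fell. The precursor markers that fell included Cspg4, at 13.9, 11.7, 14.2 and 11 and at 7.25, 4.6, 5.11 and 6.16 (-1.08 ± 0.17, adjusted p = 0.00106) and Pdgfra at 31.7, 17.5, 35.3 and 23 and at 13.7, 12.9, 12.4 and 17.4 (-0.87 ± 0.19, adjusted p = 0.00784). Astrocyte markers fell in 4 of 15 with all libraries (26.7%, against 9.09% of all genes). Without P14 replicate 2, where 13.4% of all genes fell, the count was 9. It was 2 without P28 replicate 4 and 1 without P14 replicate 1, P14 replicate 3, P28 replicate 2 or P28 replicate 3. The 11 other astrocyte markers did not pass with all libraries. Fgfr3 was at 84, 47.4, 67.3 and 36.8 and at 30.9, 26.1, 22.1 and 31.4 (-1.02 ± 0.21, adjusted p = 0.00511). The summed level of the 15 astrocyte markers was 3062, 1724, 2645 and 2108 at P14 and 1815, 1740.1, 1640.1 and 1784 at P28, with P14 replicate 2 within the P28 range. Of 14 microglial markers none passed in either direction with all libraries by limma, edgeR or DESeq2 (0 at an unadjusted p below 0.05), and 2 fell without P14 replicate 2.

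Vascular markers fell in 7 of 20 (35.0%, against 9.09% of all genes), with none rising and a median of -0.98. The falling count was 14 without P14 replicate 2, where 13.4% of all genes fell. It was 4 without P14 replicate 1, P14 replicate 3 or P28 replicate 2. Cldn5, the tight-junction protein of brain endothelium, was at 25.4, 10.5, 20.3 and 18.5 and at 11.6, 3.31, 5.66 and 4.15 (-1.6 ± 0.32, adjusted p = 0.00425), where P14 replicate 2 lay within the P28 values. The collagen Col3a1 was at 16, 4.64, 12.4 and 22.3 and at 5.59, 0.942, 1.35 and 2.68 (-2.23 ± 0.51, adjusted p = 0.0103). Eln, elastin, was at 169, 52.3, 72.6 and 403 and at 50.2, 8.83, 7.48 and 20 (-2.93 ± 0.61, adjusted p = 0.00606). Cd93 was at 14.8, 4.12, 13.1 and 13.6 and at 3.79, 1.33, 3.0 and 2.01 (-1.91 ± 0.39, adjusted p = 0.00558), and Mmp14 fell by 1.75 on the log2 scale (adjusted p = 3.98e-04). Eln, Cd93 and Mmp14 were not in the marker list. The vascular markers summed to 344, 118, 307 and 301 at P14 and 180.1, 73.6, 112 and 112 at P28. The 22 genes of progenitors and the cell cycle gave 5 that fell (22.7%, against 9.09% of all genes) and 2 that rose (9.09%, against 9.22%). The falling count was 8 without P14 replicate 2 and 12 on the deposited values without rescaling. Top2a, the topoisomerase of dividing cells, was at 4.6, 2.95, 5.76 and 3.16 and at 0.758, 0.767, 1.18 and 1.18 (-1.62 ± 0.22, adjusted p = 4.60e-04). Those that rose were the Notch target Hes1, at 0.89 (adjusted p = 0.0182), and the cyclin Ccnd1, at 1.08 (adjusted p = 0.0363), and the rising count was 1 without P28 replicate 1 or 2 and 0 without P28 replicate 3 or 4.

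Excitatory markers rose in 2 of 14 (14.3%, against 9.22% of all genes) and fell in none (0 and 3 on the deposited values). Their summed levels were 6173, 4704, 6242 and 5897 at P14 and 7146, 7076, 6560.1 and 6946 at P28. The rising count was 5 without P14 replicate 2, where 1 fell, 4 without P14 replicate 3, 0 without P28 replicate 1, 2 or 3, and 1 without P14 replicate 4, P28 replicate 4, P0 replicate 1 or P0 replicate 2. Inhibitory markers rose in 1 of 18 (5.56%) and fell in 2 (11.1%), near the 9.22% and 9.09% of all genes. On the deposited values 1 rose and 5 fell. The falling count was 3 without P14 replicate 2 and 1 without P14 replicate 1 or 3, P28 replicate 2, 3 or 4 or P0 replicate 2, 3 or 4. The rising count was 2 without P0 replicate 4. Pvalb, parvalbumin, was the one that rose, at 7.87, 7.87, 7.43 and 10.7 at P14 and at 19.8, 20.9, 19.3 and 15 at P28 (1.1 ± 0.18, adjusted p = 0.0012), whereas Gad1 was at 0.21 and Gad2 at 0.04 without passing. No marker in these lists was at 0 in all 8 libraries. The part of other cell types in the changes of matrix, growth and channel genes was not tested.

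**Figure D5:**
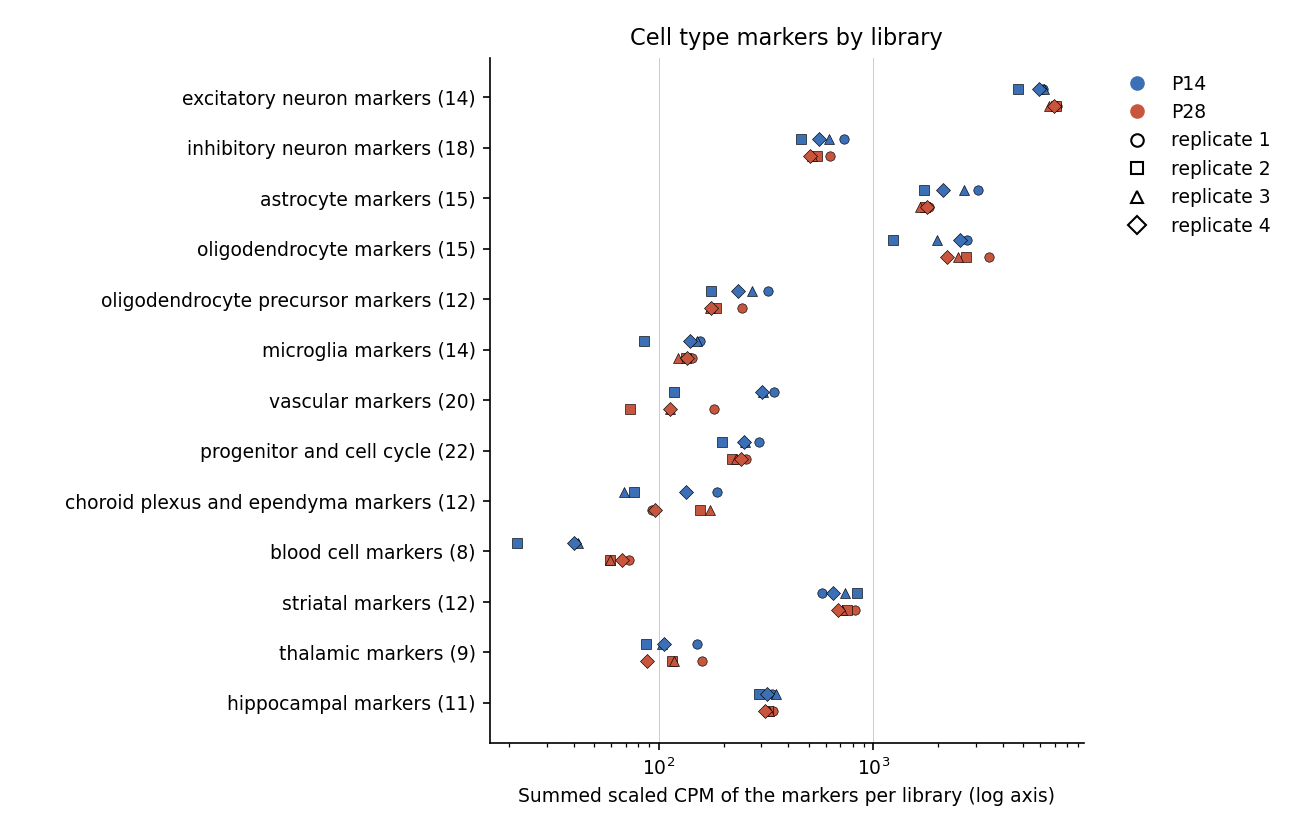
Summed scaled CPM (log axis) of the markers of each cell type (number in brackets) in each library of P14 (blue) and P28 (red), with the marker shape giving the replicate. At P14 the vascular markers span 118 to 344 and at P28 73.6 to 180.1. P14 replicate 2 is the lowest P14 library for excitatory, inhibitory, astrocyte, oligodendrocyte, precursor, microglial, vascular and blood markers.

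The values of several genes moved when P14 replicate 2 was left out. Gabrb2, a beta subunit of GABA-A receptors, was at 112, 5.27, 121 and 69.3 at P14 and at 100.1, 90.1, 95.3 and 94 at P28. Its log2 fold change was 0.98 ± 0.72 with all libraries (adjusted p = 0.366) and -0.05 without that library (adjusted p = 0.898). Kcnk9, a leak potassium channel, was at 31.7, 0.973, 31.9 and 13.5 and at 25.8, 21.2, 20 and 23.4, with 0.93 ± 0.74 (adjusted p = 0.401) and -0.09 (adjusted p = 0.854). In both genes replicate 2 was the lowest P14 library by far, P14 replicate 4 was the next lowest, and neither gene passed in either fit. The opposite was seen for Gm14776, an X-linked gene model, at 5.17, 60, 2.62 and 3.74 and at 1.09, 1.5, 2.07 and 0.670, which fell by 2.22 on the log2 scale with all libraries (adjusted p = 0.0441) and by 1.26 without replicate 2 (adjusted p = 0.00575). Its call was also lost when P14 replicate 1, any 1 P28 library or any 1 P0 library was left out (adjusted p between 0.0506 and 0.114). Gm17066, a gene model without an entry in the RefSeq table, was also highest in P14 replicate 2, at 9.43, 44.8, 14.4 and 19.5 and at 4.31, 3.66, 3.63 and 3.51 (-2.16 ± 0.34, adjusted p = 0.00105; -1.75 without that library, adjusted p = 3.21e-05). The nuclear RNAs Malat1 and Meg3, given here after their values were seen, were highest in the same library among those of P14. Malat1 was at 326, 946, 281 and 575 at P14 and at 611, 445, 745 and 661 at P28 (adjusted p = 0.523), and Meg3 was at 4618, 13069, 4375 and 6477 and at 5605, 4880.2, 5462 and 6027 (adjusted p = 0.62).

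In 5 classes of genomic length from under 10 kb to 200 kb and over, 8.31% to 9.85% of the tested genes rose and 6.90% to 11.4% fell. Tested genes without a RefSeq position have no length and are left out. The class of 200 kb and over had the lowest shares in both directions with all libraries. Without P14 replicate 2 it had 9.82% that rose, against 12.4% of all tested genes, and 15.2% that fell, against 13.4%. In that fit only the class of 100 to 200 kb had a higher falling share, 16.5%.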

How the data were processed

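Nuclear polyadenylated RNA was sequenced from 12 libraries, 4 each at P0, P14 and P28, and grouped by the age in their labels. The deposited values are signal, reads per gene divided by 1 size factor per library, with each age in a table of its own. DESeq2 and the mm10 build are named in the submitters' processing notes. The aligner, the annotation and the strand of counting were not stated there or in the labels, so overlapping and antisense genes may share reads. In each library 100.0% of values were whole multiples of 1 step within a tolerance of 0.05, which gave back the reads. Each column was divided by its total over 25834 shared genes and scaled by median-of-ratios factors.

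limma 3.58.1 (R 4.3.3; trend, robust, two-sided) was fitted to log2(scaled CPM + 0.5) of 15734 genes with at least 1 scaled CPM in 4 libraries, with age as a factor over all 12 libraries, and p-values were adjusted by Benjamini-Hochberg at 0.05. Fold changes on this scale understate the change of low genes. The scripts were tested on simulated data. On the recovered reads edgeR 4.0.16 called 1338 rising and 1664 falling genes and DESeq2 1.42.0 called 1791 and 2085. The titles call the libraries biological replicates without saying whether each is 1 animal or a pool. In the main fit, p-values set the difference between P14 and P28 against the spread of libraries within an age, estimated over all 12 libraries. They cannot say whether that spread is one between single animals.

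Of 917 entries in 40 gene lists, 12 matched no gene. The rule for named genes took the 12 largest rises and falls that passed with and without P14 replicate 2, did not overlap and had a mean of at least 5 scaled CPM over the 8 libraries, up to 4 called members of each list and the largest opposite change, label checks, and the genes that moved most without P14 replicate 2. Other list members, such as Btg2, Egr1, Nr4a1, Npas4, Gap43, Bcan, Grin2a and every member named with a value that did not pass, were named after their values were seen. Some genes that the rule takes are not reported here. The members and lists were chosen with earlier results of these data known. The floor of 3 reads covers counting error only. Alternatives covered pseudocounts, filters, scalings, library weights, other tools, thinning, a replicate block and leaving out libraries.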

Additional observations from a re-analysis of the deposited data

Results flagged for a closer look

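In 30 of 326 groups of 4 libraries (1 gene at 1 age), the highest or lowest library lay so far from the nearest other that the gap passed Dixon's 95% critical value. Chance flags about 1 in 20 independent groups. These genes were partly chosen by their values and share the same libraries, so the 30 cannot be set against that rate. P14 replicate 2 was the library apart in 12 of them and P28 replicate 1 in 10. P14 replicate 2 was low for Cbln4 at 4.26 (8.31 to 8.91), Cd93 at 4.12 (13.1 to 14.8) and Chrm4 at 6.18 (21.5 to 24.6) scaled CPM, with the range of the other 3 libraries of its age in brackets. The same library was low for Dnmt3a at 268 (350.2 to 363), Egr3 at 1.86 (16.6 to 19.6) and Fgf13 at 80.3 (122 to 129). It was also low for Fosl2 at 17.7 (30.7 to 33.1), H1f0 at 48.1 (72.8 to 75.2) and Mmp17 at 155 (258 to 273). It was further low for Nptx1 at 179.8 (347 to 369). P14 replicate 2 was high for Gm14776 at 60 (2.62 to 5.17) and Jund at 24 (12.4 to 13.8) scaled CPM, with the range of the other 3 libraries of its age in brackets. P28 replicate 1 was high for Ccnd1 at 24.9 (17.8 to 18.3), Dusp6 at 170.5 (131 to 137) and Egr3 at 129 (53.1 to 61.3) scaled CPM, with the range of the other 3 libraries of its age in brackets. The same library was high for Fosb at 57.2 (20 to 20.8), Grin2b at 665 (522 to 541) and Hapln2 at 10.5 (6.10 to 6.72). It was also high for Homer1 at 656 (325 to 369), Nr4a1 at 527 (333 to 356) and Ptgs2 at 44.9 (20.7 to 23). It was further high for Tsc22d3 at 76 (47 to 49.3). P14 replicate 4 was high for Bhlhe40 at 85.1 (58.9 to 62.7), Egr2 at 12 (3.38 to 4.45) and Fos at 39.8 (15.6 to 19.4) scaled CPM, with the range of the other 3 libraries of its age in brackets. The same library was high for Pvalb at 10.7 (7.43 to 7.87). For Dnmt3a, P28 replicate 4 was high at 249.8, against 199.7 to 206. For Nlgn3, P28 replicate 2 was high at 83.4, against 71.7 to 73.2. For Tnc, P28 replicate 3 was low at 2.07, against 3.04 to 3.22. For Vgf, P14 replicate 3 was high at 94.3, against 69.8 to 73.3.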

How the results depend on the processing

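Over the 33 alternatives, 5147 of 5367 values of the 163 named genes kept their direction and side of the threshold, 136 lost the call, 33 gained it and 51 changed sign. Of the list counts, 2083 of 2640 stayed within 1.5 times. The 1450 rising and 1431 falling genes became 674 and 3862 on the deposited values without rescaling, 3137 and 3329 with library weights, 577 and 595 at an adjusted p of 0.01, and 869 and 901 without both merged libraries. Leaving out 1 library gave 894 to 1952 rising and 901 to 2107 falling genes, and for changes of at least 2-fold 183 to 275 and 194 to 276. The 221 rises of at least 2-fold became 135 with a pseudocount of 2 CPM, 147 at a mean of 5 CPM and 127 on the deposited values. The 227 such falls became 376 with a pseudocount of 0.1 CPM, 87 with 2 CPM, 144 at a mean of 5 CPM, 451 on the deposited values, 472 with edgeR and 526 with DESeq2. The cause was not tested. A replicate block gave 1194 rising and 1163 falling genes. Deviations of same-numbered P14 and P28 libraries from the mean of their age correlated at 0.304, 0.159, -0.109 and -0.0106 across genes. Those of differently numbered libraries correlated at -0.295 to 0.176. With 4 libraries per age the deviations depend on one another, so these values cannot show whether replicate numbers pair the libraries. Leaving out P14 replicates 2 and 4 was chosen after seeing the data. With library weights, log2 fold changes changed sign for Atf3 (-0.10), Bmal1 (0.17), Dlg4 (-0.20), Gabrb2 (-0.08), Gad2 (-0.27), Grin2b (-0.08), Kcnk9 (-0.21), Mbp (-0.16) and Meg3 (0.14). Without P14 replicates 2 and 4, log2 fold changes changed sign for Atf3 (-0.04), Bmal1 (0.24), Dlg4 (-0.22), Gabrb2 (-0.30), Gad2 (-0.29), Grin2b (-0.13), Kcnk9 (-0.49), Mbp (-0.12), Meg3 (0.29) and Tnr (-0.06). With reads thinned to one total, log2 fold changes changed sign for Bmal1 (0.03). With values scaled to the library total, log2 fold changes changed sign for Clock (0.00) and Dlg4 (-0.03). With quantile normalization, log2 fold changes changed sign for Clock (0.00) and Dlg4 (-0.07). On deposited values without rescaling, log2 fold changes changed sign for Clock (-0.17), Dlg4 (-0.20), Gad2 (-0.16) and Mbp (-0.10). With upper-quartile scaling, log2 fold changes changed sign for Dlg4 (0.00). With TMM scaling, log2 fold changes changed sign for Dlg4 (0.00). With edgeR, log2 fold changes changed sign for Dlg4 (-0.03) and Gad2 (-0.02). With DESeq2, log2 fold changes changed sign for Dlg4 (-0.03) and Gad2 (-0.01). Leaving out 1 library in turn changed the sign of genes that did not pass, with ranges of Atf3 from -0.16 to 0.31, Bmal1 from -0.12 to 0.17, Clock from -0.02 to 0.08, Dlg4 from -0.16 to 0.08, Gabrb2 from -0.05 to 1.42, Gad2 from -0.21 to 0.16, Grin2b from 0.00 to 0.52, H2bc21 from -0.13 to 0.01, Kcnk9 from -0.09 to 1.40, Mbp from -0.18 to 0.26 and Meg3 from -0.42 to 0.11. At 3 reads per library the depth does not resolve genes below 0.139 CPM.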

Other observations

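Cytoskeletal genes of mature neurites, a list not described above, gave 3 of 30 that rose and 5 that fell, with a median of 0.10 that turned to -0.06 without P14 replicate 2. Map7, a microtubule-binding protein of axon branches, was at 102, 124, 110.1 and 118 scaled CPM at P14 and at 139, 151, 160.4 and 174 at P28 (0.46 ± 0.11, limma adjusted p = 0.0111). The tubulins Tuba1b and Tubb5 fell. Tuba1b was at 113, 116, 113 and 107 and at 71.1, 69.9, 59.9 and 59.3 (-0.79 ± 0.09, adjusted p = 1.14e-04), and Tubb5 fell by 0.52 on the log2 scale (adjusted p = 0.0134). The ages did not overlap for these 3 genes, while the rise of Map7 was not called on the deposited values without rescaling, where no member rose and 11 fell. The rising count was 1 without P28 replicate 1 and 5 without P14 replicate 2 or 3. The falling count was 8 without P14 replicate 2, where 13.4% of all genes fell.

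Of 5 tested blood markers, the alpha-globin genes Hba-a1 and Hba-a2 rose (40.0%, against 9.22% of all genes). They also rose with each of the 12 libraries left out in turn. Hba-a1 was at 14.4, 8.47, 14.4 and 13.1 at P14 and at 29.7, 25.4, 26.8 and 27.7 at P28 (1.12 ± 0.15, adjusted p = 5.41e-04), without overlap. The copies are nearly identical in sequence, so reads may be shared between them. Of 12 tested histone variant genes 2 rose (16.7%, against 9.22% of all genes) and 1 fell (8.33%, against 9.09%). H2aj rose by 0.49 on the log2 scale (adjusted p = 0.00974) and H1f0 by 0.42 (adjusted p = 0.042; 0.26 without P14 replicate 2, adjusted p = 0.0242). Macroh2a2 was at 37.6, 33, 36.8 and 35.5 and at 28, 26.5, 24.5 and 23.5 (-0.47 ± 0.09, adjusted p = 0.00264). The rising count was 1 without any 1 P28 or P0 library and the falling count 2 without P14 replicate 2 or P0 replicate 3 or 4, and on the deposited values without rescaling none rose and 3 fell.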
